A study of Homo sapiens with 6 samples.

Results

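Interferon-stimulated genes are the genes that a cell switches on after an interferon binds its receptor. The list followed here names 42 of them, written out by symbol, without a threshold on any measured value. The table held 41 of the 42 among its 27852 gene symbols, and 36 passed the filter on low values and were tested. ISG15 was not analysed here, and RSAD2, CMPK2, IFI44L, CXCL10 and CXCL11 were in the table but did not pass that filter. The filter was set by medium and asked for counts in several libraries, and these genes had their highest value in HSC4 in DMEM. With a filter set by line, IFI44L, CXCL10 and CXCL11 were tested.

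The libraries came from HSC3, HSC4 and SAS, established human oral squamous carcinoma lines, each grown in HPLM (human plasma-like medium) and in DMEM (Dulbecco's modified Eagle medium). HPLM is a culture medium made to resemble human blood plasma in its small molecules, and DMEM is a standard synthetic medium. All 6 cultures received heat-inactivated fetal bovine serum and an antibiotic-antimycotic mixture, and the labels give no interferon treatment. Polyadenylated RNA was sequenced once per line and medium. The 3 lines were therefore treated as the replicates of a medium, and the 2 media as those of a line. The labels do not name separate cultures.

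As background, type I and type III interferons act through receptor-bound kinases (JAK1, TYK2) on a complex that includes STAT2 and IRF9 and binds the interferon-stimulated response element near its target genes. Many targets block viruses at successive steps: IFITM proteins at membrane entry, OAS and IFIT proteins by sensing or binding foreign RNA, MX proteins by trapping viral components. STAT2, IRF9 and IRF7 are themselves targets, so the pathway can sustain its own response. Epithelial cells, including carcinoma lines, express many of these genes at some level without added interferon.

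Promoter sequences were examined first, since the complex binds its response element near target genes. A core form of the response element, GAAA followed by any 2 bases and GAAA again, was searched on both strands in the 250 bases before each RefSeq start site on GRCh38.p14. It was present for 22 of the 33 listed genes that had a window (66.7%), against 3.71% of 27305 genes with a window and 3.36% of the tested genes with one. The stretches below belong to genes whose values carry the results, and each is printed in its gene's own direction, 5′ to 3′. Capitals mark the motif, or its reverse complement (TTTC, any 2 bases, TTTC).
IFITM3: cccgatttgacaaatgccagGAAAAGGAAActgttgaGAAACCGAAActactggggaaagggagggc
IFITM1: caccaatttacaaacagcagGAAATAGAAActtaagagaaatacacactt
IFI6: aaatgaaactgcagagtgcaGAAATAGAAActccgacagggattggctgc
IFI44: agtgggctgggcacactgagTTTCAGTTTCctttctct
BST2: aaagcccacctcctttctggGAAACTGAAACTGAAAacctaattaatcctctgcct
IFIT3: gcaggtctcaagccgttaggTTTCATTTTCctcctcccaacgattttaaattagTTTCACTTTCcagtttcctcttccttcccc

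The IFITM3 stretch lies at chr11:320866-320932 on the minus strand and holds 2 matches, and the IFITM1 stretch lies at chr11:313980-314029 on the plus strand. The IFI6 stretch is at chr1:27672256-27672305 on the minus strand and shows 1 of its 3 upstream matches. The IFI44 stretch is at chr1:78649751-78649788 on the plus strand. The BST2 stretch, at chr19:17405725-17405780 on the minus strand, has 2 matches that overlap, and the IFIT3 stretch, at chr10:89327821-89327904 on the plus strand, has 2 that are apart. A match describes the letters only and is not evidence of binding. In HSC4 the median log2 ratio of HPLM over DMEM was −0.97 over 19 tested genes with a match and −0.995 over 9 without one. For the same genes in HSC3 the medians were −0.11 with a match and 0.15 without one. In SAS they were −0.42 and −0.10, leaving out IFI27, which was at 0 in both SAS libraries. These differences were not tested.

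Each library held between 17716006 and 20171713 estimated counts, and values are given as CPM, the gene's share of these length-corrected estimates scaled to a common total, so levels can be set side by side between genes. The 10 squamous epithelial markers summed to 1617 to 5365 CPM in HPLM and 2362 to 6348 CPM in DMEM. KRT5, KRT17 and SFN were high in every line, but other markers differed widely between lines. KRT14 had 1178, 10.8 and 165 CPM in HPLM in HSC3, HSC4 and SAS, against 1503, 4.40 and 205 CPM in DMEM. KRT6A had 333, 455 and 8.22 CPM in HPLM in HSC3, HSC4 and SAS, against 252, 305 and 13.1 CPM in DMEM. The 10 leukocyte markers summed to 55.7 to 175 CPM in HPLM and 45.9 to 147 CPM in DMEM, nearly all of it CD68 and CD74, and 5 of the 10 never passed 1 CPM. Endothelial markers summed to at most 2.49 CPM and fibroblast markers to at most 5.97 CPM. The libraries are bulk RNA, so a lower level in each cell and fewer expressing cells cannot be told apart.

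Between media, most interferon-stimulated genes had lower values in HPLM than in DMEM in HSC4, fewer did in SAS, and in HSC3 the values lay on both sides. In the edgeR quasi-likelihood test over all 13236 genes, with cell line as a term, 0 of the 36 passed an adjusted p of 0.05 in either direction, where 0.00756% of all genes passed higher and 0% passed lower. The point estimate was below 0 for 33 of the 36, against 49.9% of all genes, with a median log2 fold change of −0.46 against 0.00. At an unadjusted p under 0.05, 13 of the 36 were lower in HPLM, against 4.55% of all genes, and none was higher. DESeq2 called 0 of the 36 and had 11 lower below the unadjusted threshold, against 3.04% of all genes. Limma-voom also called 0 and had 15, against 5.04% of all genes. Without HSC4, edgeR had 1 of 36 tested members below it, against 3.92% of all genes, and the median was −0.15.

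**Figure D1:**
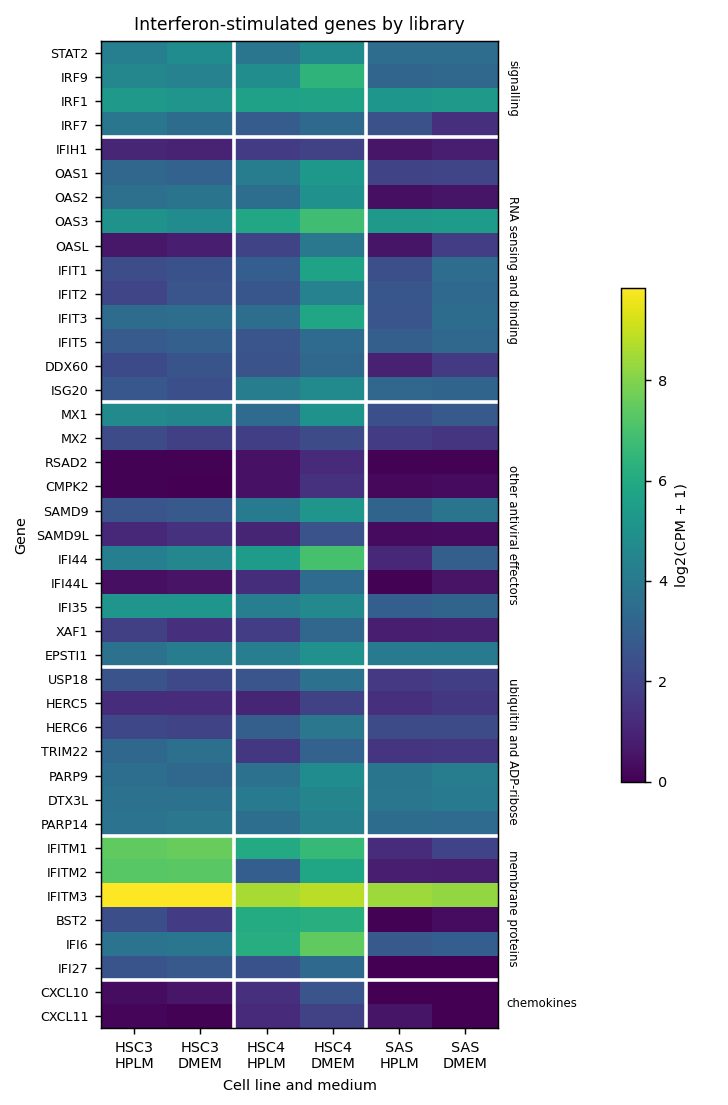
Heat map of log2(CPM + 1) for the 41 interferon-stimulated genes of the table (rows, grouped by role) in the 6 libraries (columns, HPLM left of DMEM within each line). IFITM3 is the most abundant gene in every library, and the HSC4 DMEM column is the highest of the row for most genes (29 of the 36 tested).

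Summed over the 41 genes, the level was 1592 CPM in HPLM and 1628 CPM in DMEM in HSC3, 989 CPM in HPLM and 1786 CPM in DMEM in HSC4, and 565 CPM in HPLM and 580 CPM in DMEM in SAS. IFITM3 alone made up between 25.5% and 60.2% of the sum. With IFITM3 set aside, HSC4 had 613 CPM in HPLM against 1330 CPM in DMEM, while HSC3 had 688 CPM in HPLM against 706 CPM in DMEM and SAS had 225 CPM in HPLM against 274 CPM in DMEM. In HPLM the HSC4 sum therefore lay below that of HSC3, and in DMEM it lay above it. The HPLM order rested on IFITM1 (175 CPM in HSC3, 63.9 CPM in HSC4) and IFITM2 (157 CPM in HSC3, 6.75 CPM in HSC4). Outside the membrane proteins, HSC4 summed higher than HSC3 in HPLM for RNA sensing and binding (140 against 85.8 CPM). The same held for other antiviral effectors (111 against 102 CPM), signalling (96.4 against 93.2 CPM) and chemokines (2.81 against 0.359 CPM). Ubiquitin and ADP-ribose genes had 52.8 CPM in HSC4 against 53.9 CPM in HSC3.

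**Figure D2:**
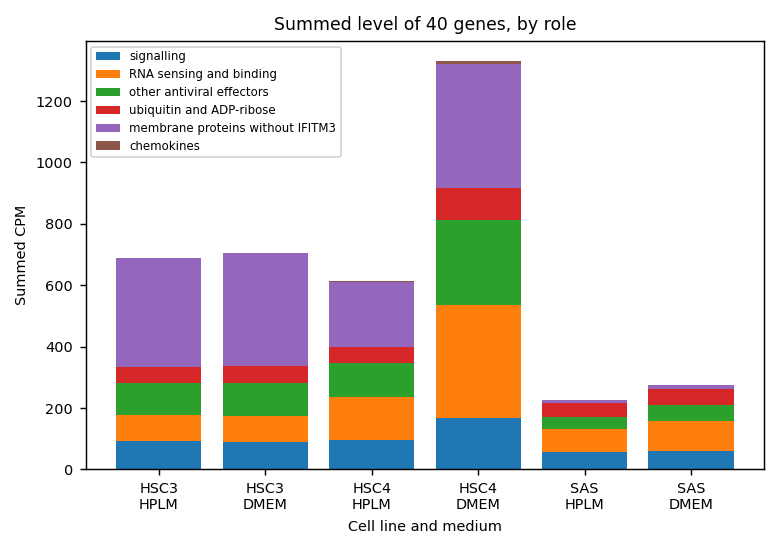
Summed CPM of 40 interferon-stimulated genes (all in the table but IFITM3) in each library, stacked by role, with HPLM left of DMEM in each line. The HSC4 DMEM bar reaches 1330 CPM against 613 CPM in HSC4 HPLM, and the 2 bars of HSC3 differ little (688 CPM in HPLM, 706 CPM in DMEM).

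The 4 signalling genes of the list encode parts of the response complex or transcription factors upstream of it. STAT2, the part of the complex that activates transcription, had 18.3, 13.8 and 10.4 CPM in HPLM in HSC3, HSC4 and SAS, against 26.6, 24.4 and 10.6 CPM in DMEM. The values overlapped between media because SAS was low in both. Its log2 fold change for the medium was −0.47 ± 0.17 (SE, edgeR adjusted p = 0.458). IRF9, the DNA-binding part of the complex, had 22.4, 27.4 and 8.17 CPM in HPLM in HSC3, HSC4 and SAS, against 19.8, 83.1 and 8.78 CPM in DMEM. The HSC4 HPLM library was 3.03-fold below its DMEM partner, and the other lines differed by little. The fitted change was −0.55 ± 0.35 (SE, edgeR adjusted p = 0.641), and without HSC4 it was 0.04. From protein-coding transcripts alone, the IRF9 log2 ratio of HPLM over DMEM was −0.42 in HSC3, −1.95 in HSC4 and −0.12 in SAS. For STAT2 it was −0.74, −0.95 and −0.45 on that reading.

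IRF1, a transcription factor driven mainly by interferon gamma, was nearly level: 39.0, 48.9 and 34.8 CPM in HPLM in HSC3, HSC4 and SAS, against 33.8, 50.6 and 38.8 CPM in DMEM (edgeR adjusted p = 0.999). IRF7, which amplifies type I interferon production, went its own way in each line. It had 13.5, 6.27 and 4.45 CPM in HPLM in HSC3, HSC4 and SAS, against 10.3, 9.22 and 1.56 CPM in DMEM. It was higher in HPLM in HSC3 and SAS and lower in HSC4, and the change over the 3 lines was 0.35 ± 0.36 (SE, edgeR adjusted p = 0.785). From protein-coding transcripts alone, IRF7 in SAS had only 1.84 CPM in HPLM and 0.255 CPM in DMEM.

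Among genes that sense or bind RNA, the IFIT family, whose members hold foreign RNA and block its translation, showed wide gaps between media in HSC4. IFIT1 had 4.05, 6.70 and 4.24 CPM in HPLM in HSC3, HSC4 and SAS, against 4.55, 52.1 and 10.5 CPM in DMEM. Only the HSC3 pair was close, and the log2 fold change was −1.59 ± 0.51 (SE, edgeR adjusted p = 0.421), or −0.76 without HSC4. IFIT2 had 3.13, 5.24 and 5.25 CPM in HPLM in HSC3, HSC4 and SAS, against 4.97, 19.4 and 9.26 CPM in DMEM. HPLM was the lower medium in every line, with a change of −1.15 ± 0.27 (SE, edgeR adjusted p = 0.362).

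IFIT3, which pairs with IFIT1, had 10.3, 10.9 and 4.99 CPM in HPLM in HSC3, HSC4 and SAS, against 10.9, 55.7 and 10.2 CPM in DMEM. It too was level in HSC3 and lower in HPLM in HSC4 and SAS, with a change of −1.19 ± 0.42 (SE, edgeR adjusted p = 0.446), or −0.55 without HSC4. IFIT5 had 6.16, 4.97 and 6.95 CPM in HPLM in HSC3, HSC4 and SAS, against 7.02, 9.84 and 9.15 CPM in DMEM. Together the IFIT genes summed to 23.6, 27.8 and 21.4 CPM in HPLM in HSC3, HSC4 and SAS, against 27.4, 137 and 39.1 CPM in DMEM. The IFIT sum was thus alike in the 3 lines in HPLM and stood apart in HSC4 in DMEM.

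The oligoadenylate synthetases make the messenger that activates RNase L, which degrades RNA. OAS3, the most abundant, had 31.4, 57.6 and 37.9 CPM in HPLM in HSC3, HSC4 and SAS, against 26.0, 112 and 41.7 CPM in DMEM. OAS1 had 8.57, 17.0 and 3.02 CPM in HPLM in HSC3, HSC4 and SAS, against 7.54, 37.6 and 3.18 CPM in DMEM. Both differed between media mainly in HSC4. OAS2 had 11.5, 10.9 and 0.318 CPM in HPLM in HSC3, HSC4 and SAS, against 12.9, 30.9 and 0.485 CPM in DMEM, and in SAS these values stand for 6 estimated counts in HPLM and 9 in DMEM. OASL, a relative that enhances RNA sensing, had 0.564, 3.03 and 0.477 CPM in HPLM in HSC3, HSC4 and SAS, against 0.785, 14.5 and 2.42 CPM in DMEM. Its HPLM over DMEM log2 ratio was −2.22 in HSC4, −2.12 in SAS and −0.41 in HSC3, so it was one of the genes with a low HPLM value outside HSC4 as well. OAS1, OAS2 and OAS3 overlap an antisense gene, and the use of strand in quantification is not stated.

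Of the remaining RNA-binding members, DDX60, a helicase, had 3.69, 4.70 and 0.849 CPM in HPLM in HSC3, HSC4 and SAS, against 4.87, 8.74 and 2.15 CPM in DMEM. IFIH1 (MDA5), a sensor of long double-stranded RNA, had 1.08, 2.32 and 0.530 CPM in HPLM in HSC3, HSC4 and SAS, against 0.995, 2.72 and 0.754 CPM in DMEM. ISG20, an exonuclease, had 5.34, 16.5 and 8.59 CPM in HPLM in HSC3, HSC4 and SAS, against 4.29, 24.9 and 8.02 CPM in DMEM. DDX60 was lower in HPLM in each line, whereas IFIH1 and ISG20 differed less between media.

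**Figure D3:**
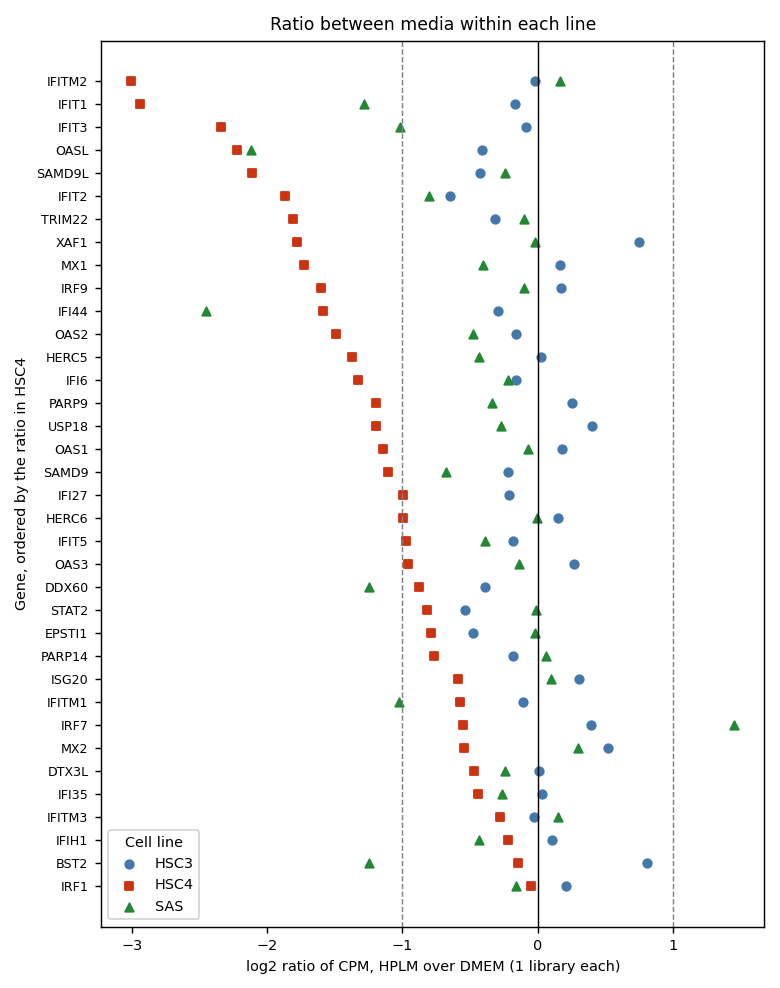
Log2 ratio of HPLM over DMEM within each line, 1 library against 1, for the 36 tested interferon-stimulated genes ordered by their HSC4 ratio (IFI27 has no SAS point, being at 0 in both SAS libraries). All 36 HSC4 points lie below 0, with a median of −1.05, while the HSC3 points lie on both sides of 0, with a median of −0.02, and the SAS median is −0.24.

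Among other antiviral effectors, IFI44 had 18.3, 42.2 and 1.17 CPM in HPLM in HSC3, HSC4 and SAS, against 22.4, 127 and 6.84 CPM in DMEM. It was lower in HPLM in every line, and most so in SAS, where its log2 ratio was −2.45. Over the lines the change was −1.27 ± 0.36 (SE, edgeR adjusted p = 0.394). SAMD9, a cytoplasmic restriction factor of poxviruses, had 4.98, 15.7 and 7.96 CPM in HPLM in HSC3, HSC4 and SAS, against 5.81, 33.8 and 12.8 CPM in DMEM. Its medium change was −0.71 ± 0.19 (SE, edgeR adjusted p = 0.381). Its relative SAMD9L had 1.18, 1.03 and 0.212 CPM in HPLM in HSC3, HSC4 and SAS, against 1.62, 4.78 and 0.269 CPM in DMEM.

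MX1, a GTPase that acts on influenza and other RNA viruses, had 24.3, 9.84 and 4.24 CPM in HPLM in HSC3, HSC4 and SAS, against 21.7, 32.7 and 5.65 CPM in DMEM. HSC4 was therefore the middle line in HPLM and the highest in DMEM. The most abundant MX1 transcript is annotated as a retained intron and took 44.0% of the gene on average. From protein-coding transcripts alone, MX1 had 4.78 CPM in HPLM and 3.99 CPM in DMEM in HSC3, and 4.41 CPM in HPLM and 24.5 CPM in DMEM in HSC4. The log2 ratio in HSC4 was −2.45 on that reading and −1.72 over all transcripts. MX2, its nuclear-pore relative that restricts HIV-1, had 3.80, 2.59 and 2.28 CPM in HPLM in HSC3, HSC4 and SAS, against 2.62, 3.82 and 1.83 CPM in DMEM.

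IFI35 had 34.6, 17.7 and 6.63 CPM in HPLM in HSC3, HSC4 and SAS, against 33.8, 24.1 and 7.97 CPM in DMEM, with the lines in the same order in both media. EPSTI1 had 11.9, 17.6 and 16.0 CPM in HPLM in HSC3, HSC4 and SAS, against 16.5, 30.5 and 16.2 CPM in DMEM. XAF1, which promotes apoptosis, had 2.62, 2.43 and 0.796 CPM in HPLM in HSC3, HSC4 and SAS, against 1.52, 8.60 and 0.808 CPM in DMEM. It was higher in HPLM in HSC3 and lower in HPLM in HSC4.

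The untested members of this group were near the limit of detection outside HSC4. IFI44L had 0.308, 1.46 and 0.0530 CPM in HPLM in HSC3, HSC4 and SAS, against 0.419, 9.75 and 0.431 CPM in DMEM. RSAD2 (viperin), which makes a chain-terminating nucleotide, had 0.378 CPM in HPLM and 1.29 CPM in DMEM in HSC4, and 1 estimated count in each of the other libraries. CMPK2, its neighbour on chromosome 2 and a mitochondrial nucleotide kinase, had 0.378 CPM in HPLM and 1.67 CPM in DMEM in HSC4 and at most 4 estimated counts elsewhere. The 2 genes overlap on opposite strands.

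Genes of ubiquitin-like and ADP-ribose modification gave smaller values. USP18, the protease that removes ISG15 and also restrains the type I receptor, had 4.67, 5.03 and 2.12 CPM in HPLM in HSC3, HSC4 and SAS, against 3.51, 11.6 and 2.58 CPM in DMEM. HERC5, the human ligase for ISG15, had 1.39, 1.03 and 1.48 CPM in HPLM in HSC3, HSC4 and SAS, against 1.36, 2.82 and 2.05 CPM in DMEM. HERC6, its relative, had 3.44, 6.97 and 3.87 CPM in HPLM in HSC3, HSC4 and SAS, against 3.09, 14.0 and 3.88 CPM in DMEM. In all of them the HSC4 pair differed most.

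TRIM22, a RING-domain antiviral protein, had 9.13, 2.05 and 1.80 CPM in HPLM in HSC3, HSC4 and SAS, against 11.4, 7.45 and 1.94 CPM in DMEM. PARP9 and DTX3L, which act as a complex and overlap at their starts on opposite strands of chromosome 3, are given side by side. PARP9 had 10.8, 11.6 and 13.1 CPM in HPLM in HSC3, HSC4 and SAS, against 9.06, 26.8 and 16.6 CPM in DMEM. DTX3L had 12.0, 15.4 and 13.6 CPM in HPLM in HSC3, HSC4 and SAS, against 11.9, 21.4 and 16.2 CPM in DMEM. Their HSC4 log2 ratios were −1.20 for PARP9 and −0.47 for DTX3L. PARP14, another ADP-ribosyltransferase, had 12.5, 10.8 and 10.2 CPM in HPLM in HSC3, HSC4 and SAS, against 14.2, 18.3 and 9.80 CPM in DMEM.

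The membrane proteins included both the most abundant members and those that set the lines furthest apart. IFITM3, which blocks virus entry at endosomes, had 904, 375 and 340 CPM in HPLM in HSC3, HSC4 and SAS, against 922, 456 and 306 CPM in DMEM. The 2 media were close in each line. IFITM1, at the cell surface, had 175, 63.9 and 1.38 CPM in HPLM in HSC3, HSC4 and SAS, against 189, 95.2 and 2.91 CPM in DMEM. IFITM2 had 157, 6.75 and 0.796 CPM in HPLM in HSC3, HSC4 and SAS, against 159, 54.9 and 0.700 CPM in DMEM. Its HSC4 log2 ratio of −3.00 was the lowest of any tested member.

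IFITM1, IFITM2 and IFITM3 are neighbours on chromosome 11 with related sequences, which were not compared here. The IFITM2 and IFITM1 gene models also overlap on one strand, so the split of reads among the IFITM genes is uncertain. Their sum, which does not depend on that split, was 1236, 446 and 342 CPM in HPLM in HSC3, HSC4 and SAS, against 1269, 606 and 310 CPM in DMEM. The HSC4 sum was lower in HPLM, at 0.736 of its DMEM value, and the medium change of the sum was −0.11 ± 0.13 (SE, edgeR adjusted p = 0.805). As a ratio, the HSC4 gap of the sum was smaller than that of IFITM2 alone, which had 0.125 of its DMEM value. IFITM3 made up most of the sum, with 375 of the 446 CPM in HSC4 in HPLM. In HSC4 IFITM1, IFITM2 and IFITM3 were each lower in HPLM. How far the split of reads enters the IFITM2 ratio was not tested.

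BST2 (tetherin), which holds budding virus on the cell, had 4.21, 66.1 and 0.0530 CPM in HPLM in HSC3, HSC4 and SAS, against 2.36, 73.3 and 0.269 CPM in DMEM. The SAS values are 1 estimated count in HPLM and 5 in DMEM. IFI6, an endoplasmic reticulum protein active against flaviviruses, had 12.3, 68.9 and 5.67 CPM in HPLM in HSC3, HSC4 and SAS, against 13.8, 173 and 6.62 CPM in DMEM. IFI27 had 4.87 CPM in HPLM and 5.65 CPM in DMEM in HSC3, 4.59 CPM in HPLM and 9.27 CPM in DMEM in HSC4, and was at 0 in both SAS libraries. Taking 3 counts per library as the floor, IFI27 was at least 28.9-fold higher in HSC4 than in SAS in HPLM and at least 57.4-fold higher in DMEM.

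The chemokines CXCL10 and CXCL11, which attract T cells through CXCR3, were low throughout. CXCL10 had 0.257 and 1.57 CPM in HPLM in HSC3 and HSC4, against 0.524 and 5.11 CPM in DMEM, and was at 0 in both SAS libraries. CXCL11 had 0.103, 1.24 and 0.477 CPM in HPLM in HSC3, HSC4 and SAS, against 0.0524, 2.77 and 0 CPM in DMEM. With the low-count filter set by line, CXCL10 had a medium change of −1.42 ± 0.56 (SE, edgeR adjusted p = 0.521). On the same filter IFI44L had −2.08 ± 0.59 (SE, edgeR adjusted p = 0.410) and CXCL11 0.49 ± 1.13 (SE, edgeR adjusted p = 0.931).

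Line by line, the HPLM over DMEM ratio described above ran as follows. In HSC4 all 36 tested genes were lower in HPLM, against 49.7% of all genes, and 18 were at least 2-fold lower, against 2.65% of all genes. The median log2 ratio was −1.05. In HSC3 19 of the 36 were lower in HPLM, against 49.5% of all genes, 0 were at least 2-fold lower, against 3.85%, and the median was −0.02. The HSC3 counts are thus close to those of all genes. In SAS 29 of the 36 were lower in HPLM, against 50.2%, and 7 were at least 2-fold lower, against 2.60%, with a median of −0.24.

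The 7 in SAS were IFIT1, IFIT3, OASL, DDX60, IFI44, IFITM1 and BST2, with 10.5 CPM (IFIT1 in DMEM) the highest value among them in that line, and IRF7 was at least 2-fold higher, against 4.05% of all genes. HSC4 gave the lowest of the 3 ratios for 30 of the 36 genes, against 33.4% of all genes, and 15 of the 36 were lower in HPLM in all 3 lines, against 17% of all genes. The HSC4 DMEM library held the highest value for 29 of the 36, against 18.5% of all genes. Each line has 1 library per medium, so these ratios have no replicate check, and the difference between lines was not tested. From protein-coding transcripts alone the HSC4 median was −1.17 with 21 of 36 at least 2-fold lower. In SAS it was −0.21, with 22 of 36 lower in HPLM and 6 at least 2-fold lower. In HSC3 it was −0.05, with 19 lower and 0 at least 2-fold lower. Of the 7 named in SAS, IFITM1 had a log2 ratio of 0.46 on that reading and BST2 −0.93. This reading was made for the listed genes alone, so no share of all genes stands beside it.

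By role, the median HSC4 log2 ratio was −0.68 for the 4 signalling genes, −1.14 for the 11 RNA-sensing and RNA-binding genes, −1.35 for 8 other effectors, −1.19 for 7 ubiquitin and ADP-ribose genes and −0.79 for 6 membrane proteins. Every role was thus lower in HPLM in HSC4. In HSC3 the same medians lay between −0.16 and 0.19.

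Between lines, many of these genes passed the test. HSC4 against SAS gave 25 of the 36 called higher in HSC4 (edgeR adjusted p under 0.05), against 21.3% of all genes, and 0 lower, against 20% of all genes, with a median log2 fold change of 1.60. HSC4 against HSC3 gave 14 higher, against 18.8%, and 4 lower, against 18.6%, with a median of 0.77. SAS against HSC3 gave 1 higher, against 18.8%, and 16 lower, against 20.6%, with a median of −0.95. The 3 contrasts share libraries. Calls over all genes also dropped when a library of the contrast was left out, so each count that follows stands beside its own share, with 36 members tested without the HSC4 DMEM library and 39 without a library of HSC3 or the SAS DMEM library. Without the HSC4 DMEM library, HSC4 against SAS gave 11 higher, against 11.6% of all genes, and HSC4 against HSC3 gave 5, against 9.27%. Without the HSC3 DMEM library, HSC4 against HSC3 gave 5 higher, against 10.9%, and without the HSC3 HPLM library it gave 2 lower, against 10.3%. Without the SAS DMEM library, HSC4 against SAS gave 12 higher, against 12.1%, and SAS against HSC3 gave 9 lower, against 11.1%. Without the HSC3 HPLM library, SAS against HSC3 gave 10 lower, against 12.3%. The median of HSC4 against HSC3 was 0.30 without the HSC4 DMEM library, 0.33 without the HSC3 DMEM library and 1.36 without the HSC3 HPLM library. The median of HSC4 against SAS was 0.90 without the HSC4 DMEM library, and that of SAS against HSC3 was −0.36 without the HSC3 HPLM library.

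BST2 was higher in HSC4 than in HSC3 by 4.42 ± 0.30 (log2, SE, edgeR adjusted p = 0.000736) and than in SAS by 8.71 ± 0.45 (edgeR adjusted p = 0.000346). Resting on the few SAS counts given above, the value against SAS was 7.88 without the SAS HPLM library and 10.29 without the SAS DMEM library. IFI6 was higher in HSC4 than in HSC3 by 3.10 ± 0.31 (edgeR adjusted p = 0.00168), and SAMD9 by 2.11 ± 0.24 (edgeR adjusted p = 0.00219). These held in both media, as the values given above show. IFIT1 was higher by 2.27 ± 0.62 (edgeR adjusted p = 0.0336), but the call was lost in 4 of 6 fits that left out 1 library. The adjusted p was 0.169 without the HSC4 DMEM library, 0.188 without the HSC3 DMEM library, 0.0512 without the SAS HPLM library and 0.05004 without the SAS DMEM library.

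The 4 genes lower in HSC4 than in HSC3 were the IFITM genes and IFI35. On the log2 scale the difference was −1.23 ± 0.18 for IFITM1 (SE, edgeR adjusted p = 0.00482) and, for IFITM3, −1.14 ± 0.13 (edgeR adjusted p = 0.00232). IFITM2 had −2.83 ± 0.70 (edgeR adjusted p = 0.0241). It ranged from −4.53 without the HSC4 DMEM library to −1.51 without the HSC4 HPLM library, and its adjusted p was 0.0666 without the HSC3 HPLM library. IFI35 had −0.73 ± 0.16 (edgeR adjusted p = 0.0157), which was 0.108 without the HSC3 HPLM library and 0.114 without the HSC4 HPLM library. The IFITM sum had −1.26 ± 0.16 (edgeR adjusted p = 0.00289).

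SAS carried the lowest levels of many members. OAS2 was higher in HSC4 than in SAS by 5.59 ± 0.46 (log2, SE, edgeR adjusted p = 0.000851), IFITM1 by 5.22 ± 0.24 (edgeR adjusted p = 0.000314) and IFITM2 by 5.07 ± 0.97 (edgeR adjusted p = 0.0095). Without the SAS DMEM library the adjusted p of IFITM2 was 0.0835, and without the HSC4 DMEM library its value was 3.18. The IFITM sum, which is free of the split of reads, was higher in HSC4 than in SAS by 0.68 ± 0.16 (edgeR adjusted p = 0.0177). In SAS this sum was nearly all IFITM3, with 340 of 342 CPM in HPLM and 306 of 310 CPM in DMEM. It therefore follows IFITM3 and cannot show how far IFITM1 or IFITM2 differ between lines. In SAS against HSC3, the log2 fold change was −7.89 ± 0.96 in IFITM2 (edgeR adjusted p = 0.00239), in IFITM1 −6.44 ± 0.25 (edgeR adjusted p = 0.000245), in OAS2 −4.98 ± 0.47 (edgeR adjusted p = 0.00122) and in BST2 −4.29 ± 0.58 (edgeR adjusted p = 0.00316). Without the SAS DMEM library BST2 had −5.86, and without the SAS HPLM library −3.47. The IFITM sum had −1.94 ± 0.16 in SAS against HSC3 (edgeR adjusted p = 0.000873).

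As deposited, IFITM3 had at least 306 CPM in either medium in SAS, while IFITM1 and IFITM2 had at most 2.91 CPM, and how far the split of reads enters these levels was not tested. SAMD9 was the 1 gene higher in SAS than in HSC3, by 0.90 ± 0.24 (edgeR adjusted p = 0.0293), and its adjusted p lay between 0.109 and 0.181 without the HSC3 DMEM library or either SAS library. The median of HSC4 against SAS stayed at 1.60, and that of SAS against HSC3 at −0.95, when IFI27 was put at its bound in place of the fitted value.

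**Figure D4:**
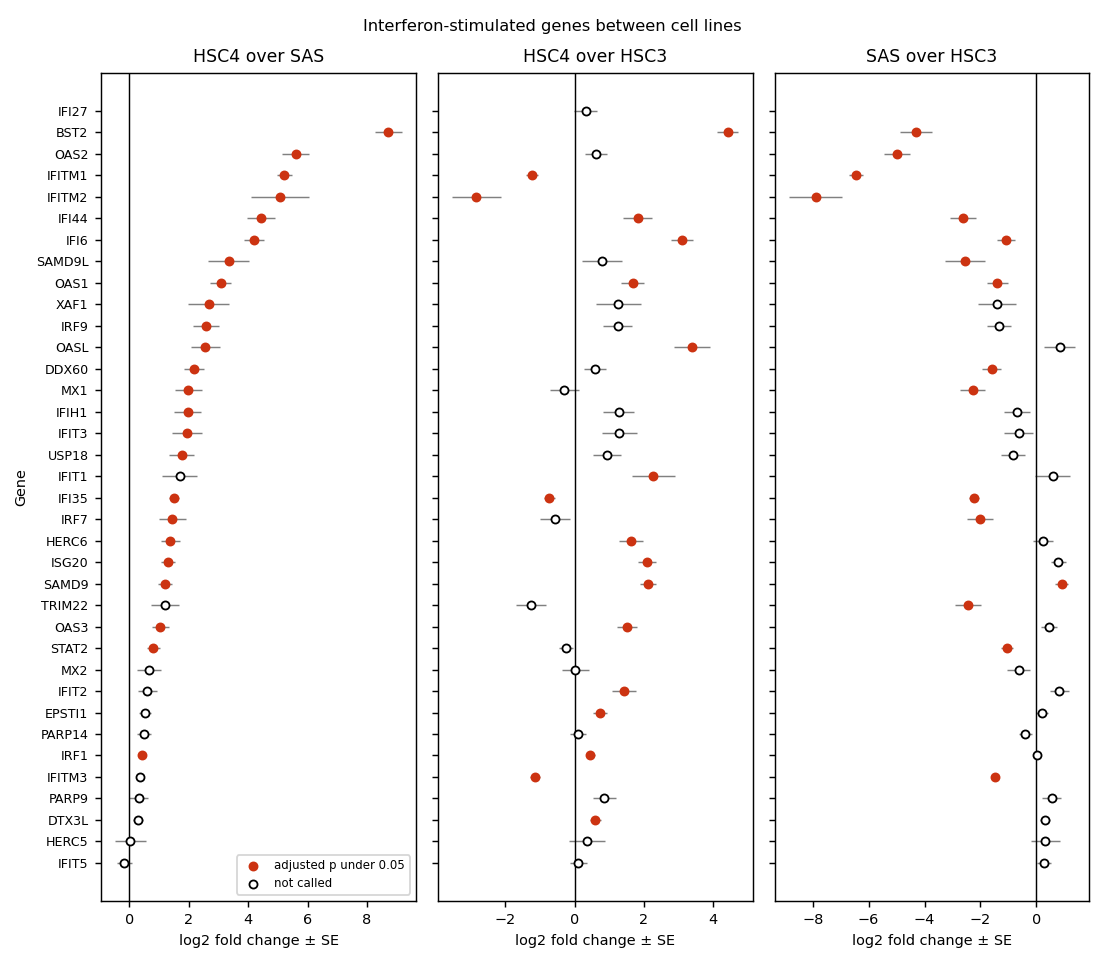
Log2 fold change with its SE for the 36 tested interferon-stimulated genes in HSC4 over SAS, HSC4 over HSC3 and SAS over HSC3 (edgeR, 6 libraries; red marks an adjusted p under 0.05; IFI27 is left out of the SAS panels because SAS was at 0). Called genes number 25 higher and 0 lower in HSC4 over SAS, 14 higher and 4 lower in HSC4 over HSC3, and 1 higher and 16 lower in SAS over HSC3, with IFI27 among the 25 and the 16.

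The genes around the response were read from 5 further lists of 71 genes. Of 10 interferon ligands, 9 never passed 1 CPM and 3 were at 0 in all libraries. IFNE, an epithelial type I interferon, was the one tested: it had 0.975, 0.919 and 1.70 CPM in HPLM in HSC3, HSC4 and SAS, against 2.57, 1.15 and 2.85 CPM in DMEM. It was not highest in the HSC4 DMEM library.

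All 6 receptor genes were tested and 0 were called for the medium by edgeR. At an unadjusted p under 0.05 there was 1, against 10.1% of all genes in either direction. That gene was IFNGR1, a chain of the interferon gamma receptor, with 40.4, 51.6 and 28.6 CPM in HPLM in HSC3, HSC4 and SAS, against 25.1, 38.2 and 21.4 CPM in DMEM. IFNAR1, of the type I receptor, had 27.1, 10.8 and 19.6 CPM in HPLM in HSC3, HSC4 and SAS, against 13.0, 16.6 and 14.5 CPM in DMEM. Its partner IFNAR2 had 19.9, 10.1 and 10.6 CPM in HPLM in HSC3, HSC4 and SAS, against 16.2, 11.1 and 7.22 CPM in DMEM.

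Among the kinases and brakes of the pathway, SOCS3, a feedback inhibitor of JAK signalling, had 20.7, 9.78 and 20.3 CPM in HPLM in HSC3, HSC4 and SAS, against 8.17, 5.16 and 10.9 CPM in DMEM. It was higher in HPLM in all 3 lines, by 1.06 ± 0.15 (log2, SE, edgeR adjusted p = 0.252). JAK1 had 43.3, 42.3 and 41.8 CPM in HPLM in HSC3, HSC4 and SAS, against 42.9, 36.8 and 37.7 CPM in DMEM. TYK2 had 41.5, 49.2 and 26.8 CPM in HPLM in HSC3, HSC4 and SAS, against 43.1, 45.4 and 31.8 CPM in DMEM. PIAS1 had 21.3, 38.3 and 19.7 CPM in HPLM in HSC3, HSC4 and SAS, against 21.9, 46.0 and 26.0 CPM in DMEM.

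All 13 sensor and adaptor genes were tested, with 0 called for the medium by edgeR. At an unadjusted p under 0.05 there were 2, near the 10.1% of all genes in either direction. These went opposite ways: STING1 was lower in HPLM (log2 fold change −0.31) and ZBP1 was higher (0.92). STING1, the adaptor of DNA sensing, had 19.2, 11.4 and 14.3 CPM in HPLM in HSC3, HSC4 and SAS, against 20.8, 15.1 and 18.9 CPM in DMEM. IKBKE, a kinase of IRF3 and IRF7, had 44.1, 28.6 and 18.9 CPM in HPLM in HSC3, HSC4 and SAS, against 23.0, 33.6 and 9.53 CPM in DMEM. TICAM1, the adaptor of TLR3, had 10.4, 15.5 and 13.3 CPM in HPLM in HSC3, HSC4 and SAS, against 10.4, 12.6 and 7.97 CPM in DMEM. The list as a whole had a median log2 ratio of −0.31 in HSC4, −0.11 in SAS and 0.09 in HSC3.

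Other effectors of interferon, outside the 42, gave 31 tested genes of 34. By edgeR 0 were called for the medium and 4 had an unadjusted p under 0.05, near the 10.1% of all genes in either direction. Those 4 were lower in HPLM, where 4.55% of all genes were lower at that threshold. Their median log2 ratio was −0.40 in HSC4, −0.07 in SAS and 0.12 in HSC3, the lowest again in HSC4. EIF2AK2 (PKR), which halts translation on double-stranded RNA, had 25.4, 52.7 and 44.8 CPM in HPLM in HSC3, HSC4 and SAS, against 27.9, 74.7 and 49.2 CPM in DMEM. ADAR, which edits double-stranded RNA, had 95.4, 84.0 and 108 CPM in HPLM in HSC3, HSC4 and SAS, against 82.2, 114 and 113 CPM in DMEM.

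PARP10 had 7.49, 12.3 and 5.57 CPM in HPLM in HSC3, HSC4 and SAS, against 8.69, 18.5 and 9.85 CPM in DMEM. WARS1, the tryptophan transfer RNA synthetase, had 145, 119 and 180.1 CPM in HPLM in HSC3, HSC4 and SAS, against 228, 154 and 192 CPM in DMEM. PLSCR1, a phospholipid scramblase, had 76.2, 72.7 and 66.0 CPM in HPLM in HSC3, HSC4 and SAS, against 84.1, 120.0 and 77.8 CPM in DMEM. All 3 were lower in HPLM in each line, and none was called. Between lines, 15 of the 31 were called higher and 1 lower in HSC4 against HSC3, against 18.8% and 18.6% of all genes. In HSC4 against SAS 18 were higher and 2 lower, against 21.3% and 20%. In SAS against HSC3 6 were higher and 11 lower, against 18.8% and 20.6%, so that the 6 lie at the share of all genes.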

How the data were processed

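RNA of 3 lines in 2 media was measured in 6 libraries. The authors deposited one estimated count for each transcript and library, in scaled TPM form, which is corrected for transcript length. Per the submitters' processing notes, FastQC and kallisto were used, with hg38. The sources used here do not give tool versions, the annotation release or the use of strand. The precision that a test takes from such counts is approximate, so no counting interval is given. DMEM columns were matched by the line's name: they name no medium and end in a suffix of unstated meaning. Of 161149 rows, 1312 repeats were counted once, and 6878 transcripts without a symbol (0.362% to 0.479% of a library) were left out of the gene sums.

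Transcript values were summed per symbol, rounded and tested with edgeR 4.0.16 (quasi-likelihood, TMM scaling, filterByExpr with a count minimum of 10 and a total minimum of 15, line and medium as terms, Benjamini-Hochberg over 13236 genes), in R 4.3.3. There were 2 residual degrees of freedom. The SE of a log2 fold change is its size over the square root of F. Log2 ratios within a line use a prior count of 2. The code was tested on simulated data. DESeq2 1.42.0, limma 3.58.1 (voom), other scalings, other filters and leaving out libraries were alternatives. Libraries of the same line pair the media: the correlation of their deviations was 0.779 for HSC3, 0.792 for HSC4 and 0.805 for SAS, and at most −0.335 otherwise. P-values measure only the spread between these libraries. Positions and transcript types come from GENCODE 29.

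The members and all lists were chosen with earlier results of these data known, so no p is adjusted over a list. A result on 1 further gene is not reported here. Tests were given for the medium for the 6 members of smallest p with a mean of at least 5 CPM and for STAT2, IRF9, IRF1 and IRF7, and for each line contrast for up to 4 called members per direction with that mean. Of the further lists, the 3 genes of smallest p per list with that mean were named, with JAK1, TYK2, IFNAR1, IFNAR2, ADAR and EIF2AK2.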

Additional observations from a re-analysis of the deposited data

Results flagged for a closer look

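6 of the 36 tested genes had log2 ratios of HPLM over DMEM that pointed opposite ways in 2 lines, each by at least 0.3. This rule was applied to the listed genes alone. No share of all genes stands beside the count, so it does not set these genes apart from others. IRF7 had 0.40 in HSC3, −0.55 in HSC4 and 1.45 in SAS, so that HSC3 and HSC4 differed by 0.946 and HSC4 and SAS by −2.002. MX2 had 0.52 in HSC3, −0.54 in HSC4 and 0.30 in SAS, with differences of 1.06 and −0.843. ISG20 had 0.31 in HSC3 and −0.59 in HSC4, a difference of 0.894. XAF1 had 0.75 in HSC3 and −1.78 in HSC4, a difference of 2.53, and USP18 had 0.40 in HSC3 and −1.19 in HSC4, a difference of 1.59. BST2 had 0.81 in HSC3 and −1.25 in SAS, a difference of 2.06, and its SAS value rests on 1 estimated count in HPLM and 5 in DMEM. Each ratio is 1 library against 1, and the differences were not tested.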

How the results depend on the processing

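Named genes kept their direction and their side of the threshold in 348 recomputed values, 11 lost the call in the same direction and 6 changed sign. The sign changes, with lines left out in turn, were in IRF9 (−0.95 without HSC3 to 0.039 without HSC4), IRF7 (−0.063 without SAS to 0.85 without HSC4) and IRF1 (−0.10 without HSC3, 0.017 without HSC4, 0.075 without SAS). IRF1, near 0 throughout, was also at 0.000337 with upper-quartile scaling and 0.000366 with the low-count filter by line. For the medium over all genes, 1 gene was called, and 0 with upper-quartile scaling, without a low-count filter, with that filter by line and without the replicate block of cell line, 127 with DESeq2, 9 with limma-voom, and 0 to 4 when a line was left out. Without the replicate block, 2 of the 36 were lower at an unadjusted p under 0.05, against 0.196% of all genes, where the block gave 13 and 4.55%.

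When single libraries were left out, the called genes ranged from 2445 to 4844 for HSC4 over HSC3, 2787 to 5554 for HSC4 over SAS and 2848 to 5000 for SAS over HSC3. Members called ranged from 5 to 17 higher and 2 to 6 lower for HSC4 over HSC3, 11 to 27 higher for HSC4 over SAS, and 0 to 3 higher and 9 to 17 lower for SAS over HSC3. Both the share of all genes called in each direction and the number of members tested (36 or 39) changed between these fits. Where the library left out belongs to the contrast, its line is left with 1 library. The ranges of member counts therefore do not show by themselves how far the members differ from all genes. The members' medians ranged from 0.30 to 1.36 for HSC4 over HSC3, from 0.90 to 2.08 for HSC4 over SAS and from −1.43 to −0.36 for SAS over HSC3. With the IFITM genes summed, 1 member was lower in HSC4 over HSC3, and from protein-coding transcripts the HSC4 ratio median was −1.17. The by-line filter, the IFITM sum and the protein-coding reading were chosen after seeing the data.

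Scaling by library totals alone shifted the median of all genes by 0.14 for HSC4 over HSC3, with 3097 higher and 1753 lower against 2490 and 2462, and by 0.15 for HSC4 over SAS, with 3454 higher and 1832 lower against 2821 and 2641. Low estimated counts limit OAS2, BST2, SAMD9L and IFI27 in SAS, and 1 library per line and medium limits every ratio within a line. No cause of these changes was tested.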
